A study of Homo sapiens with 4 samples.

Results

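The genes described here encode the proteins of the cytosolic ribosome. They were taken from the deposited table of log2 CPM (log2 of library-scaled counts, CPM) by symbol: RPL or RPS followed by digits and at most an A, X, L or similar letter, together with RPLP0, RPLP1, RPLP2 and RPSA, without pseudogenes and without the RPS6 kinases. The rule found 80 of the 16137 genes in that table, 48 of the large subunit and 32 of the small subunit. A further 2 genes with a matching symbol, RPL3L and RPL10L, had at most 7 and 3 reads in any library, did not pass the filter on low counts and are not among the 80. The 80 genes lie on 21 chromosomes, 12 of them on chromosome 19.

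RNA was measured by poly(A) sequencing in Hs578T cells, an established line from a human breast carcinoma. All cells received GFP together with 1.6 µM of RNA, which was a non-targeting control (SCR) in one group and an siRNA against TLN1 (siTLN1) in the other. RNA was collected 48 h later. Each group held 2 libraries from biological replicates of 1 cell line, and no untransfected cells or second TLN1 siRNA were analysed here. TLN1 encodes talin-1, which couples integrins to the actin cytoskeleton. The comparison asks whether RNA of the translation machinery differed once TLN1 RNA was reduced.

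A ribosome joins a small subunit, which reads the mRNA, to a large subunit, which forms peptide bonds and feeds the new chain through an exit tunnel. Most of its proteins are needed in equal copy number, and most of their mRNAs start with a cytosine followed by a run of pyrimidines, the 5′ terminal oligopyrimidine (TOP) motif, through which mTORC1 and LARP1 govern their translation and stability. Cells in culture that grow and divide keep these mRNAs among their most abundant.

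The start of the transcript is shown first because it is the feature that the family shares and that the choice by symbol did not use. RefSeq promoter sequences (GRCh38.p14) matched 64 of the 80 genes by symbol. Each line gives 15 bases before and 15 from the annotated start on the gene's own strand, and capitals mark the pyrimidine run that begins at the start with a C.

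RPS12: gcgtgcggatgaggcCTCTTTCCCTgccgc

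RPS6: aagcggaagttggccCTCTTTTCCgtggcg

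RPL11: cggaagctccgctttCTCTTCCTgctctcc

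RPL34: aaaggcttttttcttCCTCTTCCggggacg

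RPS10: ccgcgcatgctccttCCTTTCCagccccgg

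RPLP1: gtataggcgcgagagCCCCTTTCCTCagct

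RPL39: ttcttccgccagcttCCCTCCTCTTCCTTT

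RPL32: ggtgaggtgacccttgacctcctgggatcg

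RPS27L: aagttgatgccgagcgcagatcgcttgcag

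A start with C and at least 4 more pyrimidines (C or T), searched on the transcribed strand at the annotated start only, was found in 46 of the 64 matched genes (71.9%), 28 of 39 in the large subunit and 18 of 25 in the small subunit. Per gene, 768 of 11301 other tested genes (6.80%) and 5 of 68 genes of mitochondrial ribosomal proteins (7.35%) held it. Counted per promoter sequence, it was in 46 of the 79 sequences of the matched genes (58.2%) and in 4.07% of all 35116 sequences in the same RefSeq table. Of the 64 genes, the 18 without it include RPL32, RPS4X, RPL36AL and RPS27L. RPL32 had 3 promoter sequences and none held it. The one printed starts at chr3:12840450 on the minus strand, inside the gene, whose outer end is at 12841582. An annotated start can differ from the one a cell uses, so these letters describe the annotation and not whether the cell's mRNA has the motif.

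The ribosomal protein genes were abundant but spread over a wide range. Mean CPM in the SCR libraries ran from 1.81 for RPL36A to 1261 for RPL8, with a median of 315 over the 80 genes, and 67 of them lay above 100 CPM. CPM does not allow for length, so levels of different genes were compared as TPM (length-scaled transcript abundance) computed with the length of 1 annotated transcript per gene (median 707 bases for these genes and 2599 for all tested genes). On that scale 28 of the 80 were among the 100 most abundant genes, and the median SCR level was 1058 TPM. RPS18 stood highest among them at 3270 ± 182 TPM (SD, n = 2), followed by RPL8 at 3114 ± 348 (SD, n = 2), and these neighbours did not differ beyond their spread. At the low end were RPL36A at 10.1 ± 0.142 TPM and RPS27L at 18.0 ± 0.746 (SD, n = 2 each). The value of RPS27L rests on an annotated transcript of 6434 bases. By mean CPM in SCR, RPS27L (48.5) lay above RPL17 (30.9) and RPS10 (18.3). RPL36A, RPL17 and RPS10 share 22.5%, 35.3% and 40.3% of their exon bases with other genes. The part of shared exons and of pseudogene copies in these levels was not tested. The order depends on the length used: with all exon bases of a gene in place of 1 transcript, 12 of the 80 were among the 100 most abundant.

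RNA of the ribosomal proteins hardly differed between siTLN1 and SCR cells. In the test by edgeR (quasi-likelihood, Benjamini-Hochberg adjustment over all 16137 genes, threshold 0.05), 1 of 80 genes passed (1.25%), the exit-tunnel protein gene RPL23A, which was lower. Across all tested genes 980 passed, a background of 6.07%. The lower calls alone were 3.77% and the higher calls 2.30% of all tested genes. At an unadjusted p under 0.05 there were 2 of the 80, RPL23A and RPL32, where the background was 19.8%. The fitted log2 fold changes of the 80 genes had a median of 0.02, beside 0.0033 over all tested genes, and ran from −0.39 to 0.24, with 51 above and 29 below 0. Their median size without sign was 0.061, beside 0.16 for all tested genes, and 61 of the 80 were under 0.1. Over the 77 genes of mitochondrial ribosomal proteins the median size was 0.065, so small changes were not particular to this family. In bulk RNA, fewer cells of a kind and less RNA per cell cannot be told apart.

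**Figure D1:**
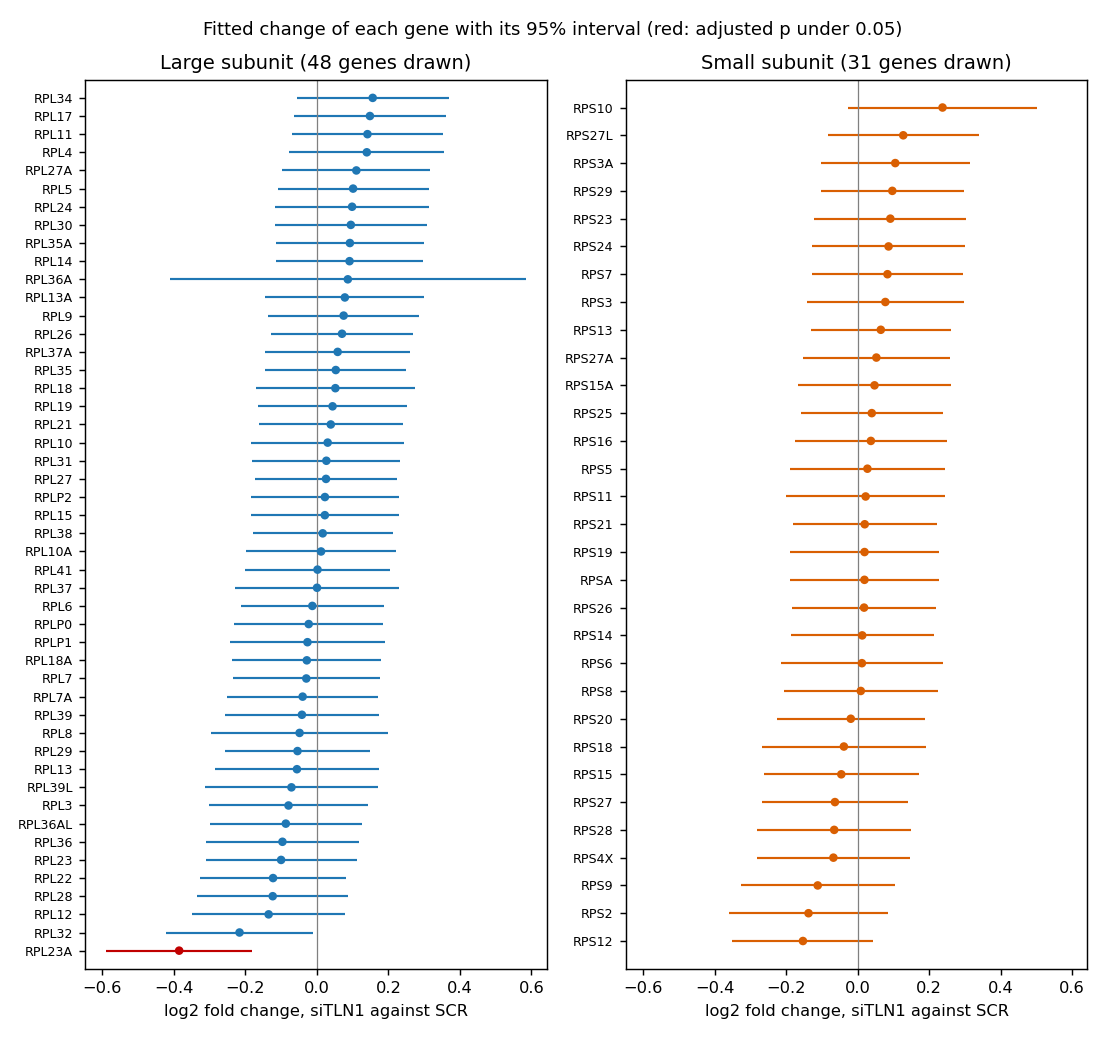
Log2 fold change of siTLN1 against SCR for 79 of the 80 genes (horizontal axis, log2 scale), with points for the edgeR estimate and bars for its 95% interval, large subunit left and small subunit right. All intervals drawn but those of RPL23A (red) and RPL32 cross 0. The interval of RPL36A, the gene with the lowest mean CPM in SCR, is the widest.

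The intervals of most genes were narrow. Standard errors lay between 0.092 and 0.24, with a median of 0.10. The 95% interval stayed within −0.5 and 0.5 on the log2 scale for 77 of 80 genes, against 53.8% of all tested genes. It did so for 71 of 77 genes of mitochondrial ribosomal proteins as well. The exceptions among the 80 were RPL23A on the low side and RPL36A and RPS10 on the high side. At these errors, estimates of the size of −0.22 for RPL32 and 0.24 for RPS10 did not pass the adjusted threshold.

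In the large subunit 1 of 48 genes passed (2.08%), with a median log2 fold change of 0.02 and 28 above 0. RPL23A sits at the mouth of the exit tunnel, where the signal recognition particle docks. Its gene (ENSG00000198242.14) spans chr17:28719985-28724359 in GRCh38. RPL23A stood at 6.98 and 7.05 log2 CPM in SCR replicates 1 and 2 and at 6.54 and 6.72 in siTLN1 replicates 1 and 2. Both siTLN1 samples were below both SCR samples. The log2 fold change was −0.39 (SE 0.096, edgeR adjusted p = 0.0246). The columns of the count table, on which the tests rest, name a group and carry a number that matches no label. Each number is shared by 1 SCR and 1 siTLN1 column; the pair with the lower number is called library a and the other library b. The call did not survive the removal of the SCR library b (−0.35) or of the siTLN1 library a (−0.30), each of which left 1 library in a group. Nor did it survive the edgeR test without a filter on low counts (−0.37, adjusted p = 0.0649), a test over more genes. Among the exon bases of RPL23A, 15.7% are shared with other genes, among them the small nucleolar RNAs SNORD4B, SNORD42A and SNORD42B in the same orientation and an opposite-strand gene, and reads from opposite strands were not separated in these counts.

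RPL32 was the next lowest of the large subunit. It stood at 8.55 and 8.64 log2 CPM in SCR and at 8.29 and 8.46 in siTLN1 samples, again without overlap. Its log2 fold change of −0.22 (SE 0.098, edgeR adjusted p = 0.226) did not pass the threshold. RPL12, which lies at the base of the stalk, had values of 8.52 and 8.64 in SCR and 8.33 and 8.55 in siTLN1 samples, which overlap (−0.13, edgeR adjusted p = 0.512). RPL28 had 8.44 and 8.65 in SCR and 8.38 and 8.47 in siTLN1 samples, which overlap as well (−0.12, edgeR adjusted p = 0.549). None of these 3 genes passed. Leaving out each library in turn moved RPL32 from −0.30 to −0.13, RPL12 from −0.24 to −0.031 and RPL28 from −0.22 to −0.016.

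The highest estimates of the large subunit were smaller in size than that of RPL23A. RPL34 had 6.37 and 6.57 log2 CPM in SCR and 6.56 and 6.70 in siTLN1 samples (0.16, SE 0.10, edgeR adjusted p = 0.429). RPL17, whose protein lines the exit tunnel, had 4.89 and 5.01 in SCR and 5.06 and 5.14 in siTLN1 samples (0.15, SE 0.10, edgeR adjusted p = 0.460). The siTLN1 values of RPL17 lay above the SCR values, while those of RPL34 overlapped. RPL4, a further tunnel protein, had 9.74 and 9.84 in SCR and 9.85 and 10.00 in siTLN1 samples (0.14, SE 0.10, edgeR adjusted p = 0.499), with a narrow gap between the groups.

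RPL5 and RPL11 form a particle with 5S ribosomal RNA that joins the large subunit and, when free, binds the p53 regulator MDM2. RPL11 had 8.81 and 8.95 log2 CPM in SCR and 8.94 and 9.10 in siTLN1 samples, and its log2 fold change was 0.14 (SE 0.10, edgeR adjusted p = 0.481). RPL5 had 9.33 and 9.43 in SCR and 9.41 and 9.55 in siTLN1 samples (0.10, edgeR adjusted p = 0.643). The groups overlapped in both genes.

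The stalk proteins RPLP0, RPLP1 and RPLP2 recruit elongation factors to the large subunit. Their log2 fold changes were −0.023, −0.026 and 0.022, with edgeR adjusted p of 0.934, 0.926 and 0.935. RPLP0 had 9.49 and 9.53 log2 CPM in SCR and 9.42 and 9.55 in siTLN1 samples, so its siTLN1 values enclosed its SCR values. RPL3, which reaches to the peptidyl transferase centre, RPL10, which joins late in assembly, and RPL41, which has the shortest coding sequence of the 80 at 75 bases, had log2 fold changes of −0.079, 0.030 and 0.0018, and none passed.

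In the small subunit edgeR called 0 of 32 genes, with 0 at an unadjusted p under 0.05. The backgrounds over all tested genes were 6.07% and 19.8%. The median log2 fold change was 0.02, with 23 of 32 above 0. The highest was RPS10, a protein of the beak that is ubiquitinated when ribosomes collide. RPS10 had 4.01 and 4.36 log2 CPM in SCR and 4.35 and 4.51 in siTLN1 samples, and the ranges overlapped at 1 edge. Its log2 fold change was 0.24 (SE 0.12, edgeR adjusted p = 0.314), and it ran from 0.077 to 0.42 when each library was left out in turn. Of its exon bases, 40.3% are shared with the read-through gene RPS10-NUDT3.

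RPS27L and RPS3A had log2 fold changes of 0.13 and 0.11, with edgeR adjusted p of 0.530 and 0.621.

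At the other end, RPS12 had 8.11 and 8.20 log2 CPM in SCR and 7.96 and 8.05 in siTLN1 samples, without overlap (−0.15, SE 0.093, edgeR adjusted p = 0.399). RPS2, at the mRNA entry channel, had 9.52 and 9.71 in SCR and 9.40 and 9.56 in siTLN1 samples, which overlap (−0.14, edgeR adjusted p = 0.522; −0.23 to −0.036 with each library left out in turn). RPS9, also at the entry channel, and RPS4X, encoded on the X chromosome, had log2 fold changes of −0.11 and −0.068 and did not pass. RPS6, the substrate of the S6 kinases, had 9.41 and 9.53 in SCR and 9.35 and 9.60 in siTLN1 samples. The siTLN1 values of RPS6 enclosed the SCR values, and the log2 fold change was 0.012 (edgeR adjusted p = 0.971). RPSA, also known as the laminin receptor precursor, and RPS19, the gene most often mutated in Diamond-Blackfan anaemia, both had a log2 fold change of 0.019.

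Over the 80 genes, the samples of the 2 groups did not overlap for 8 genes (10%), where the background over all tested genes was 48.4%. Higher in both siTLN1 samples were 4 genes, RPL17, RPL4 and RPS29 among them (background 23.9%), and RPL22, RPL23A, RPL32 and RPS12 were lower (background 24.6%). RPS29 was named because it is in this count, after its values were seen.

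Several ribosomal protein genes have a close copy that encodes a variant protein, and these pairs were followed because a switch between copies would leave the sum unchanged. RPS27 had a log2 fold change of −0.063 and its copy RPS27L, a p53 target, one of 0.13. RPL36A and RPL36AL had 0.087 (SE 0.24) and −0.087 (SE 0.10), RPL39 and RPL39L had −0.042 and −0.071, and RPL22 and RPL22L1 had −0.12 and −0.11. None of these 8 genes passed the edgeR threshold. The partner of RPL3, RPL3L, was counted 1 and 5 times in SCR and 3 and 7 times in siTLN1 libraries. RPL36A was the least certain of the 80, with 0.86 and 0.94 log2 CPM in SCR and 0.70 and 1.19 in siTLN1 samples, and 56 to 105 counts per library.

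The median difference between replicates was larger than that between treatments. In the deposited log2 CPM, replicate 2 lay above replicate 1 for 79 of 80 genes in SCR cells and for 79 of 80 in siTLN1 cells, and in both groups for 78 (97.5%). Over all tested genes 32.1% did so in both groups, and over the genes of mitochondrial ribosomal proteins 81.8%. The median of replicate 2 minus replicate 1 was 0.13 in SCR and 0.15 in siTLN1 cells, while over all tested genes it was 0.0018 and 0.0025. The exception in SCR cells was RPL22 (−0.018). Gene length in exon bases had a median of 2966 in these genes and 4657 over all tested genes. With each library's trend over that length removed, the medians of replicate 2 minus replicate 1 were 0.071 and 0.11. The part of length in the replicate difference was not tested.

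**Figure D2:**
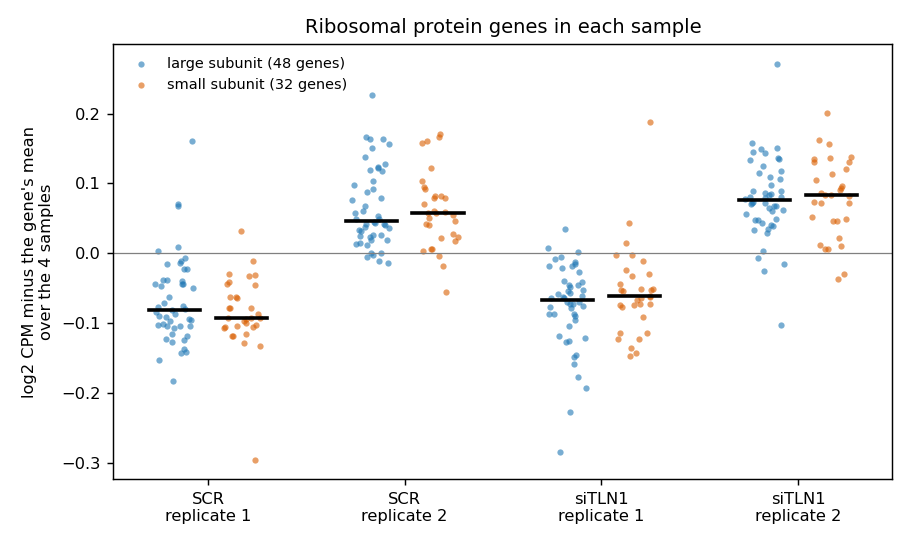
Each point is 1 gene in 1 sample, as its log2 CPM minus its own mean over the 4 samples (vertical axis), blue for the large and orange for the small subunit, and black bars are medians. Replicate 2 lies above replicate 1 in both groups, with subunit medians between −0.093 and −0.062 in the replicate 1 samples and between 0.047 and 0.083 in the replicate 2 samples.

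Within replicate 1 the median of siTLN1 minus SCR over the 80 genes was 0.022, and within replicate 2 it was 0.019. By subunit, the medians were −0.0036 (replicate 1) and 0.019 (replicate 2) for the large subunit and 0.029 and 0.022 for the small subunit. The difference was positive within both numbers for 37 genes, negative within both for 23 and opposite for 20, where 35.4% of all tested genes were positive and 34.5% negative within both. RPL23A was the lowest within each number, at −0.45 (replicate 1) and −0.33 (replicate 2), and RPL32 stood at −0.26 and −0.18. RPS10 was the highest within replicate 1 at 0.34, and 0.15 within replicate 2. RPL36A changed sign, from −0.16 to 0.25. Across the 80 genes the differences of the 2 numbers correlated with a Pearson r of 0.56 (Spearman 0.53), and with 0.43 without RPL23A and RPL32. These correlations are across genes that share 4 libraries and are not independent replicates. The labels do not say that a number marks a shared preparation, and pairing was not assumed in the test.

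**Figure D3:**
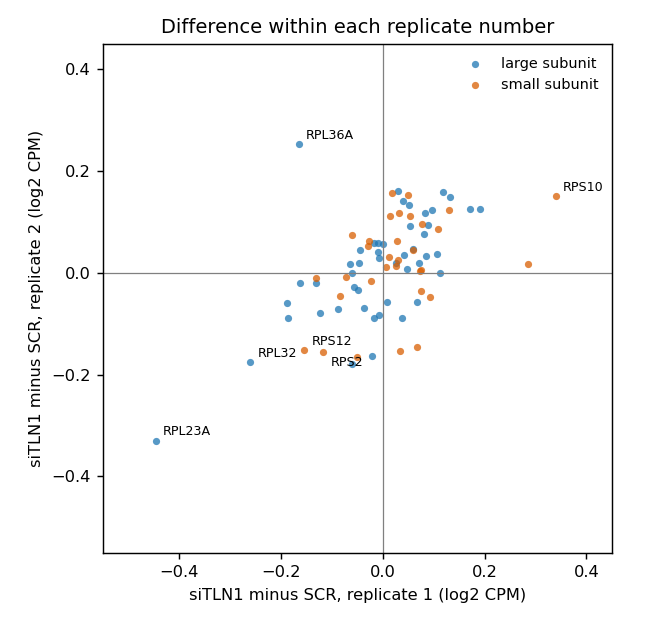
Each point is 1 of the 80 genes, with siTLN1 minus SCR in log2 CPM within replicate 1 (horizontal axis) and within replicate 2 (vertical axis), coloured by subunit. Most genes cluster around 0, RPL23A lies lowest in both, and RPL36A lies at −0.16 and 0.25.

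The sign of the family's median depended on which libraries were compared. The median log2 fold change of the 80 genes was −0.043 without the SCR library a, 0.097 without the SCR library b, 0.089 without the siTLN1 library a and −0.053 without the siTLN1 library b. Each of these 4 values is smaller in size than the median difference between replicates, 0.13 in SCR cells.

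The difference between replicates varied with base composition in the SCR cells. Transcripts of the 80 genes held between 42.1% and 63.6% GC (1 annotated transcript per gene). Across the 80 genes, GC content and replicate 2 minus replicate 1 correlated with a Pearson r of 0.54 in SCR (Spearman 0.46) and −0.12 in siTLN1 cells (Spearman −0.10). Over all 15968 tested genes with a transcript sequence, r was 0.29 in SCR (Spearman 0.38) and 0.092 in siTLN1 cells (Spearman 0.13), so the relation in SCR cells was not limited to this family. In the 20 genes of highest GC the median replicate difference was 0.20 in SCR and 0.14 in siTLN1 cells, and in the 20 of lowest GC it was 0.11 and 0.14. In RPS15 and RPL36, 2 GC-rich genes picked after their values were seen, replicate 2 exceeded replicate 1 by 0.28 and 0.24 in SCR but by 0.064 and 0.10 in siTLN1 cells.

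**Figure D4:**
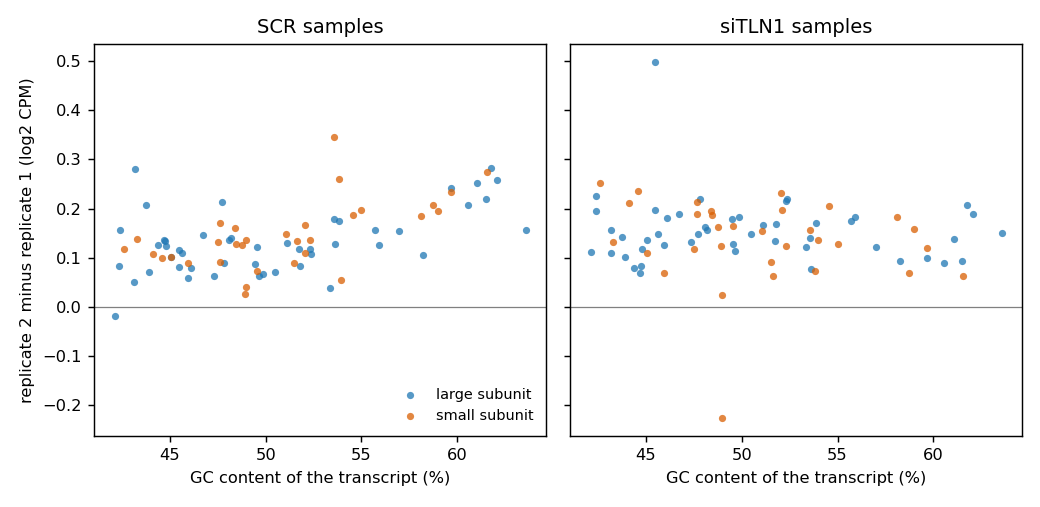
Replicate 2 minus replicate 1 in log2 CPM (vertical axis) against the GC content of the transcript in percent (horizontal axis) for the 80 genes, SCR samples left and siTLN1 samples right, coloured by subunit. In SCR samples the GC-rich genes lie higher (r 0.54), and in siTLN1 samples no such slope is seen (r −0.12).

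The comparison of siTLN1 with SCR varied with GC content as well. Its log2 fold change correlated with GC content with a Pearson r of −0.29 (Spearman −0.35). Within replicate 2 the r was −0.48, and within replicate 1 it was −0.028. Genes of lowest GC had a median log2 fold change of 0.073 and those of highest GC one of −0.0076. Over all tested genes with a transcript sequence, the corresponding r was −0.055. With each library's trend over GC removed, an alternative chosen after the data were seen, RPL23A remained the single call of the 80 (−0.39, edgeR adjusted p = 0.0200). The share of all tested genes called in that fit is not given here.

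As a share of all counts, the 80 genes took 2.66% and 2.95% in the SCR libraries a and b and 2.62% and 3.01% in the siTLN1 libraries a and b. The siTLN1 values enclosed the SCR values (exact permutation test, two-sided p = 1.0). The ratio of large to small subunit counts was 1.651 and 1.649 in SCR and 1.668 and 1.653 in siTLN1 libraries. The siTLN1 libraries were higher without overlap, with an exact two-sided permutation p = 0.333, the smallest that 2 against 2 libraries can give. Counted per kilobase of exon, the ratio was 1.330 and 1.329 in SCR and 1.355 and 1.349 in siTLN1 libraries, with the same p. In means, that is 1.329 ± 0.0013 against 1.352 ± 0.0042 (SD, n = 2 each).

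Some reads of these genes overlap other annotated genes. Of the 80 genes, 46 share some exon bases with another annotated gene, and 7 share at least 20%. RPL10 shares 55.5%, RPS10 40.3%, RPL17 35.3% (with the read-through gene RPL17-C18orf32), RPS2 25.9%, RPL36A 22.5%, RPL30 21.8% and RPS28 20.6%. The 29 genes with at least 5% shared bases had a median log2 fold change of 0.030 and held 7 of the 8 genes without overlap between groups, among them RPL23A, RPL32 and RPL17. The other 51 had a median of 0.013, no call by edgeR, and 1 gene without overlap, RPS12. The part of shared exons in these differences was not tested.

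Ribosomal protein genes also have many processed pseudogenes, and reads that match a gene and its copies equally can be lost from the counts. The annotation used for the counts names 1587 pseudogenes of these genes, at least 1 for 77 of the 80, with a median of 13 and the most, 133, for RPL21. RPL23A has 91. The 130 pseudogenes that passed the filter held between 0.0358% and 0.0407% of all counts in the 4 libraries. Pseudogene counts equalled 15.1% of the gene's own counts for RPL23A in SCR cells, 20.8% for RPL17 and 19.9% for RPS28, and exceeded those of RPL36A itself. EdgeR called 0 of the 130 pseudogenes (background 6.07%), with 3 at an unadjusted p under 0.05 (background 19.8%). The median log2 fold change of the 130 was −0.00019. These shares do not measure how many reads the genes lost, and the part of such losses in the values of RPL36A, RPL17, RPS28 and RPL23A was not tested.

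The 3 lowest genes of the family share a 7-base word in their coding sequence. The word, GACAACA, came from earlier work on the same fold changes, so its presence here is not independent evidence. It was searched on the transcribed strand in the annotated transcripts of GENCODE 29 (GRCh38) and was found in the coding sequence of 5 of the 80 genes (6.25%), where 16.3% of 12864 tested coding genes held it. The sites are printed with 11 bases before and 12 after the word, which is in capitals.

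RPL23A: agaagatagaaGACAACAacacacttgtgt

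RPL32: ccagaggcattGACAACAgggttcgtagaa

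RPS12: ttaaggttgatGACAACAagaaactaggag

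RPL23: tcaattgtgctGACAACAcaggagccaaaa

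RPS18: ccaatggtctgGACAACAagctccgtgaag

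Each word lies within 1 coding exon, at chr17:28722787-28722793 in RPL23A, chr3:12839497-12839503 in RPL32, chr6:132816966-132816972 in RPS12, chr17:38853025-38853031 in RPL23 and chr6:33276194-33276200 in RPS18. The log2 fold changes of these 5 genes were −0.39, −0.22, −0.15, −0.10 and −0.038, all below 0, and their median was −0.15 beside 0.02 for the 80. The flanking bases differ between the 5 sites. In the 3′ UTR the word was found in 4 of the 80 genes (5%), where 10.0% of tested coding genes held it. Among them RPL14, RPL37 and RPL37A had log2 fold changes of 0.091, 0.00045 and 0.058, each above 0. These genes held the word in 1 annotated coding transcript each. None of the 4 genes with the word in the 3′ UTR passed. Fold changes of the other tested coding genes that hold the word are not given here, and an effect of the word was not tested.

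Genes with and without a TOP motif at an annotated start had like medians. The median log2 fold change was 0.028 over the 46 genes with the start and 0.020 over the 18 without. Among 30 other tested genes of known TOP mRNAs, 2 passed (6.67%), with a median of 0.026. EIF2S3, which encodes a subunit of the initiation factor that brings the initiator tRNA, was lower, at 8.27 and 8.20 log2 CPM in SCR and 7.74 and 7.87 in siTLN1 samples (−0.42, SE 0.094, edgeR adjusted p = 0.0125). SNHG1, a noncoding host of small nucleolar RNAs, was higher, at 5.86 and 6.06 in SCR and 6.35 and 6.36 in siTLN1 samples (0.39, SE 0.098, edgeR adjusted p = 0.0266).

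The genes that make and assemble ribosomes had higher estimates than the ribosomal proteins themselves. Of 58 tested genes of small subunit assembly, 47 lay above 0 with a median log2 fold change of 0.11, and 2 passed (3.45%), both higher. Of 64 tested genes of large subunit assembly, 48 lay above 0 with a median of 0.11, and 3 passed (4.69%), 2 higher and 1 lower. Both siTLN1 samples were above both SCR samples for 31 of the 58 and 34 of the 64, where the background was 23.9%. In the ribosomal protein genes the same held for 4 of 80. The difference between these lists was not tested.

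WDR36, a part of the small subunit processome, had 6.47 and 6.25 log2 CPM in SCR and 6.96 and 6.72 in siTLN1 samples (0.48, SE 0.11, edgeR adjusted p = 0.0138). UTP25, of the same complex, had a log2 fold change of 0.37 (edgeR adjusted p = 0.0396). MDN1, the ATPase that strips factors from the maturing large subunit, had 6.10 and 5.95 in SCR and 6.69 and 6.42 in siTLN1 samples (0.53, SE 0.11, edgeR adjusted p = 0.00680). DDX56, a helicase of large subunit assembly, was lower (−0.40, SE 0.092, edgeR adjusted p = 0.0161). URB2, named to complete the count, was higher (0.39, edgeR adjusted p = 0.0271).

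Of 22 tested genes of RNA polymerase I and its factors, 3 passed (13.6%), with MAX, the partner of MYC, lower (−0.56, edgeR adjusted p = 0.00580) and the subunit gene POLR1G higher (0.45, edgeR adjusted p = 0.0268). The third, POLR1F, named to complete the count, was higher as well (0.35, edgeR adjusted p = 0.0461). Of 32 genes of the mTORC1 and LARP1 pathway, 1 passed (3.12%), the translational repressor EIF4EBP2, which was higher (0.45, SE 0.10, edgeR adjusted p = 0.0180). Among 14 chaperones and importers of ribosomal proteins edgeR called 0, with 1 at an unadjusted p under 0.05, and among 14 genes of nonsense-mediated decay it called 0, with 0 at that level. DESeq2 and limma-voom also called 0 in these last 2 lists. DESeq2 called 12 genes over these lists together where edgeR called 11. No edgeR call in these lists was kept without the siTLN1 library a, where the siTLN1 group held 1 library. The share of all tested genes called in that fit, by DESeq2 or by limma-voom is not given here. These counts are therefore not read as results about the lists.

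The ribosome of mitochondria is built from a separate gene set. Of 77 such genes 1 passed (1.30%), with a median log2 fold change of −0.0069. MRPL35, of its large subunit, had 5.95 and 5.98 log2 CPM in SCR and 5.29 and 5.61 in siTLN1 samples (−0.50, SE 0.11, edgeR adjusted p = 0.0118). Leaving out each library in turn moved MRPL35 from −0.67 to −0.35. Its call was lost without the siTLN1 library a, where the siTLN1 group held 1 library.

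**Figure D5:**
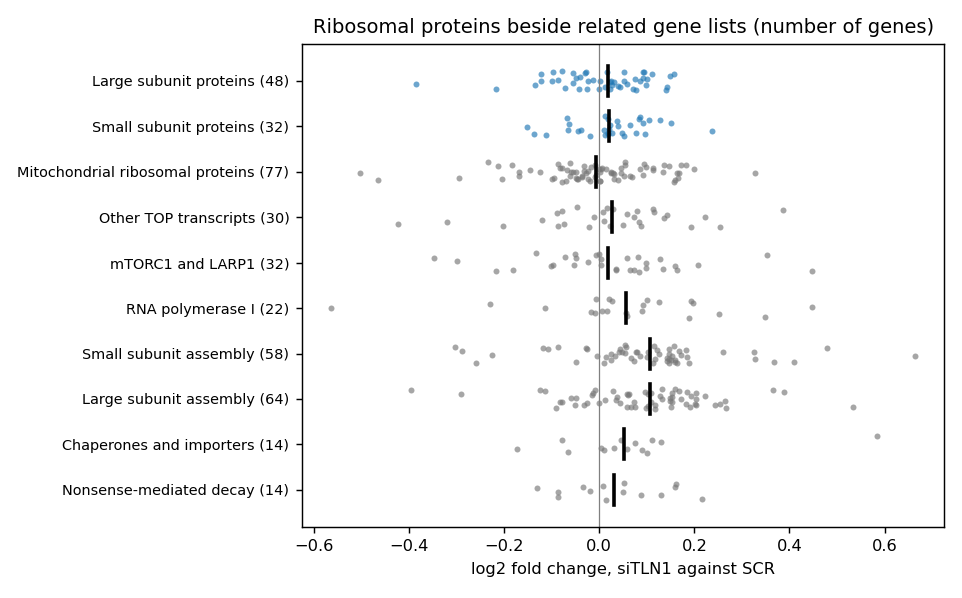
Log2 fold change of siTLN1 against SCR (horizontal axis) for the ribosomal protein genes (blue) and the related lists (grey), 1 point per gene, black bars for medians and the number of genes in brackets. The ribosomal proteins lie between −0.39 and 0.24, and both assembly lists have their median at 0.11.

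Library totals ran from 31854322 to 46353297 counts. TLN1 itself stood at 9.76 and 9.77 log2 CPM in SCR and at 5.70 and 5.49 in siTLN1 samples, a log2 fold change of −4.17 (SE 0.11, edgeR adjusted p = 3.89e-13). The samples had the markers of a mesenchymal breast line: the 12 mesenchymal markers summed to between 54741 and 60994 CPM, 14 epithelial markers to between 123 and 153 CPM with GRHL2 and OVOL1 at 0, and 10 leukocyte markers to at most 1.91 CPM with 6 of them at 0. Mitochondrially encoded genes took 1.90% and 2.36% of counts in SCR and 3.47% and 2.94% in siTLN1 libraries, and their part in the values above was not tested.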

How the data were processed

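Poly(A) RNA libraries of Hs578T cells (2 SCR, 2 siTLN1) were analysed. The authors deposited raw counts per gene, made with featureCounts (Subread 2.0.0) on GENCODE 33 of GRCh38; the command in the file headers sets paired reads but neither strand nor multi-mapping. The libraries are stranded per the labels' protocols, but with no strand set the counts did not separate opposite-strand reads. The submitters' processing notes name STAR 2.7.9a and edgeR 3.34.1. Gene length, in exon bases, is another column of the deposited count table. The deposited log2 CPM table of 16137 genes had the gene set of filterByExpr (minimum count 10, minimum total 15), and, once ordered inside each group, 100% of its entries matched TMM-scaled log2 CPM computed here within 1e-06. Its columns carry the replicate numbers. Count columns name the group and carry a number that matches no label and recurs in 1 column of each group, so they are called libraries a and b and were not tied to the replicate numbers; 0 columns were unmapped.

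Groups were compared on the counts with edgeR 4.0.16 (R 4.3.3; TMM, glmQLFit robust, glmQLFTest, Benjamini-Hochberg over all tested genes, threshold 0.05). The biological coefficient of variation was 0.0805, and p-values measure the spread between these samples. Single values were compared by exact permutation of libraries. The procedure was tested on simulated data.

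The members, gene lists and naming rule were chosen with earlier results of these data known. Named members are those past the threshold, the 4 highest and 4 lowest of each subunit and a set fixed by role; from other lists, up to 2 genes with the smallest p. Genes named for level, shared exons, GC or the word GACAACA fall outside that rule and were picked by that property after values were seen. Of the genes that the rule selects, 1 is not reported here by name. Alternatives were RLE or total-count scaling, TMM without the ribosomal protein genes, other count filters, the legacy method, DESeq2 1.42.0, limma 3.58.1 (voom, and trend on the deposited log2 CPM), removal of trends with length or GC (loess span 0.3), leaving out each library, and a replicate block. Transcript lengths, GC and words came from 1 (words: every) GENCODE 29 transcript per gene, and starts from RefSeq. Python 3.11.15 and matplotlib 3.10.9 were used.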

Additional observations from a re-analysis of the deposited data

How the results depend on the processing

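The call of TLN1 held under all alternatives run. Without a filter on low counts, 0 of 80 ribosomal protein genes were called (0 of the large subunit), a test over more genes. Leaving out 1 library gave 0 to 1 calls among the 80 (large subunit 0 to 1), 0 to 2 of the mitochondrial ribosomal proteins and 0 to 12 of the 237 genes of other lists. With the trend over GC or over gene length removed, 2 genes of mitochondrial ribosomal proteins were called. The ratio of large to small subunit, siTLN1 minus SCR, was 0.010 on counts and 0.023 per kilobase of exon.

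Neither the replicate numbers nor the numbers that recur in the count columns are explained in the labels or headers, so a pairing was not assumed. Deviations of same-numbered samples correlated with r = 0.19 over all tested genes, 0.54 over the 10487 genes with at least 5 CPM and 0.0080 over the 80. A correlation across genes does not register a shift common to them. Replicate 2 lay above replicate 1 in both groups for 78 of the 80. With the replicate block (limma-trend on the deposited log2 CPM) 3645 genes (22.6%) were called. Of the 80 these were 3, with 2 of the large subunit, RPL23A (−0.39, adjusted p = 4.61e-07) and RPL32 (−0.22, adjusted p = 0.00465), and 1 of the small, RPS10 (0.25, adjusted p = 0.0233). Mitochondrial ribosomal proteins had 9 and other lists 54. With the replicate block and the length trend removed there were 4 of the 80 (3 large, 1 small, with RPL34 added), 9 and 58. The share of all tested genes called in this last fit is not given here, so its counts are not read as results about the lists.

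With 4 libraries, estimates near 0 changed sign for RPS6 (−0.0027 with the GC trend removed) and RPL41 (−0.0018 likewise, −0.00046 by limma-trend with and without the block, −0.00070 by voom). The cause was not tested. Of 559 values of 43 named genes under alternatives that kept 4 libraries, 547 kept direction and side of the threshold. Leaving out 1 library in turn reversed the sign for 17 of 43. The ranges were RPS9 −0.22 to 0.010, RPS4X −0.18 to 0.035, RPS3A −0.0014 to 0.21, RPLP0 −0.081 to 0.036, RPLP1 −0.13 to 0.084, RPLP2 −0.053 to 0.10, RPSA −0.062 to 0.099, RPS6 −0.12 to 0.13, RPS19 −0.080 to 0.13, RPL10 −0.061 to 0.12, RPL41 −0.087 to 0.088, RPS27 −0.14 to 0.016, RPL36A −0.21 to 0.30, RPL36AL −0.20 to 0.021, RPL39 −0.091 to 0.0072, RPL39L −0.18 to 0.032 and RPL3 −0.17 to 0.0054. A group left with 1 library was assumed to vary like the other.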
